A study of Mus musculus with 180 samples.

Results

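Mubritinib, 1 of 58 clinical kinase inhibitors (CKIs) tested on mouse bone marrow-derived macrophages (BMDMs), was compared with the solvent DMSO by RNA-seq of LPS-activated cells. The comparison held the 3 samples labelled with Mubritinib and the 6 DMSO samples, out of 180 RNA-seq samples in the series, and 12714 of the 45070 genes in the expression table. Genes were kept where the mean normalized value over all 180 samples was 10 or more. The lowest mean inside this limit was 10 and the highest outside it was 9.99. All 9 samples were wild-type BMDMs, grown from the marrow of male mice, pretreated for 1 h with Mubritinib or DMSO and then stimulated for 2 h with 10 ng/ml LPS, the bacterial lipopolysaccharide that activates Toll-like receptor 4. No unstimulated sample enters the comparison, so every value describes cells that had received LPS. The 6 DMSO samples were deposited as 2 sets of 3, and the labels do not say which set was handled together with Mubritinib. Those 6 samples were the reference for every other CKI of the series too.

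Mubritinib was developed as an inhibitor of ERBB2 (HER2), a receptor tyrosine kinase of the epidermal growth factor receptor family, and has also been described as an inhibitor of complex I of the mitochondrial respiratory chain. The study additionally annotates it to MINK1, a kinase of the germinal centre kinase family. As background, cells under amino acid shortage, mitochondrial or endoplasmic reticulum stress phosphorylate the translation factor eIF2 alpha, which favours translation of the transcription factor ATF4. ATF4 then induces genes of amino acid supply and of stress signalling, a programme known as the integrated stress response. A separate sensor, the glucose-responsive factor MondoA with its partner Mlx, drives Txnip and Arrdc4, arrestin-family proteins that restrain glucose uptake. Sterol regulatory element-binding proteins (SREBPs) drive the enzymes of cholesterol synthesis.

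Promoter sequences are shown for genes on which the results turn and whose window before the start site holds the letters of a well-known response element. All come from RefSeq on build GRCm38.p6, the patch release of the mm10 assembly used for the deposited counts. Capitals mark the matched letters, positions count from the start site (the base before it is -1), and each sequence runs 5′ to 3′ on the strand of its gene. The Txnip sequence (chr3:96557832-96557928, plus strand) holds a carbohydrate response element, searched on both strands as CACGNG, 5 bases and CACGNG, from -85. The Chac1 sequence (chr2:119351009-119351096, plus strand) and the Slc7a11 sequence (chr3:50443614-50443719, minus strand) hold the C/EBP-ATF response element TGATGCAA or its complement TTGCATCA, from -193 in Chac1 and from -66 and -47 in Slc7a11. The Hmgcs1 sequence (chr13:119690174-119690262, plus strand) holds a sterol regulatory element, searched as TCACNCCAC, from -137. The Ifnb1 sequence (chr4:88522861-88522950, minus strand) holds the kB site GGGANNTTCC from -116.
Txnip: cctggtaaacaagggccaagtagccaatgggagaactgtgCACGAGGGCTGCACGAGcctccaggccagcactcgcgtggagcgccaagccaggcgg
Chac1: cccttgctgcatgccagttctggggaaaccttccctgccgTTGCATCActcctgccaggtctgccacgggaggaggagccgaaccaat
Slc7a11: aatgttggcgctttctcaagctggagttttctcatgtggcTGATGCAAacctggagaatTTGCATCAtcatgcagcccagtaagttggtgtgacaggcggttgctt
Hmgcs1: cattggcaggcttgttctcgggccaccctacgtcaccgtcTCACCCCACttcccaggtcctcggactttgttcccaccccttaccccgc
Ifnb1: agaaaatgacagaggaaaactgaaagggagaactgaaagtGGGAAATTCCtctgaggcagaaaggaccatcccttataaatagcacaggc

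Of 32851 RefSeq promoter windows of 300 bases, 0.0487% held the carbohydrate response element letters, 0.895% the C/EBP-ATF letters, 1.24% the sterol letters and 1.47% the kB letters. A match of letters is a description of the window and does not show that a factor binds there.

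The 9 samples had summed normalized values between 9481416 and 11370491, and their log2 profiles correlated at 0.94 to 0.987. All 10 macrophage markers on the list were present in every sample, with a summed level of 103410 to 225802 in DMSO and 99167 to 184870 with Mubritinib. Of 9 listed T or NK cell markers in the table, 7 stayed under 10 in each of the 9 samples, as did 5 of 6 B or plasma cell markers and all 5 mast cell or basophil markers. The summed neutrophil and progenitor markers, 8 of 9 of them with a mean of 10 or more over the series, lay between 320 and 573 in DMSO and between 379 and 950 with Mubritinib. Among them only Ly6g stayed under 10 in all 9 samples, while Cd34, Ngp and Ltf had medians of 143, 138 and 64 over these samples. Dendritic cell markers summed to 68 to 104 in DMSO and 65 to 88 with Mubritinib. Fibroblast markers summed to 29 to 185 and 32 to 59. Of these 7 markers, 4 stayed under 10 in all 9 samples, and Col1a1, Pdgfrb and Col1a2 had medians of 19, 16 and 11. Endothelial markers summed to 47 to 359 and 160 to 188. Of these 4 markers, 3 stayed under 10 in all 9 samples, and Kdr had a median of 177. Of the erythroid and megakaryocyte markers only Pf4 was above 10, and the list summed to 2809 to 6763 and 2641 to 5798. All 10 macrophage markers and 8 of 9 neutrophil and progenitor markers entered the test between Mubritinib and DMSO, and none passed. For T or NK, B or plasma, dendritic, endothelial and erythroid or megakaryocyte cells only 1 marker each was tested. For fibroblasts 3 were tested and for mast cells or basophils 0, and none of these passed either. Markers under the mean filter could not pass, so they say nothing about a change.

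Mubritinib raised 137 genes and lowered 97 genes against DMSO, which was 1.08% and 0.763% of the genes tested. Testing used limma on log2(normalized value + 1) in a fit over all 59 treatment groups, with Benjamini-Hochberg adjustment over 12714 genes and a threshold of 0.05. At an unadjusted p under 0.05 there were 1692 genes. Fold changes below are log2 differences on the scale of value + 1, with the standard error (SE) of that fit, and they understate changes of low genes. The median log2 difference over all genes was 0.08, and 7871 of the 12714 genes lay above 0. Rescaling each sample by the median of ratios brought the median to 0.00 and turned the split to 101 higher and 155 lower. The fall was at least 1 on the log2 scale for 34 of the called genes and the rise at least 1 for 50. For 102 of the 137 risen genes all 3 Mubritinib values lay above all 6 DMSO values, and for 78 of the 97 fallen genes all 3 lay below. Of all genes tested, 2.51% and 1.67% were separated in these ways. The calls rest on the same values as the separation, so its higher share among called genes is not independent evidence.

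**Figure D1:**
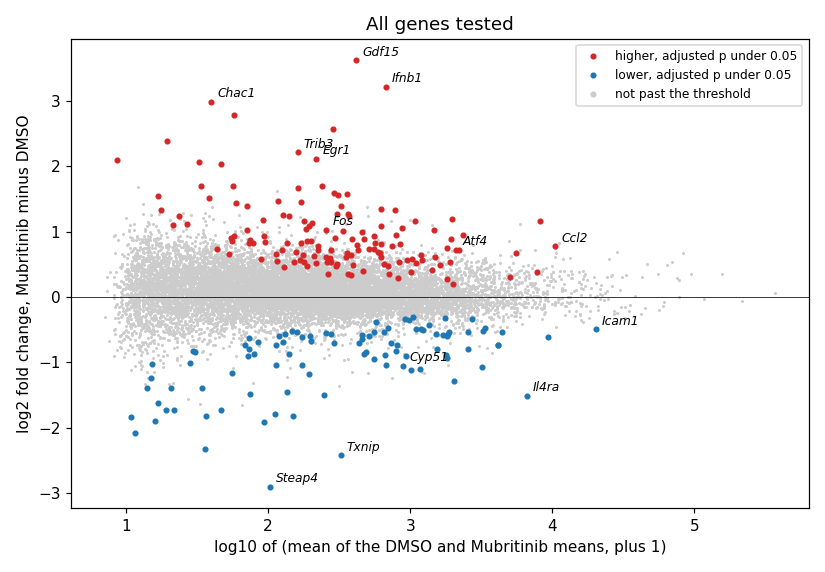
Each point is 1 of the 12714 genes tested, with the log10 mean normalized value of both groups on the x axis and the log2 difference of Mubritinib (3 samples) minus DMSO (6 samples) on the y axis. Red points are the 137 genes that rose and blue points the 97 that fell, with Gdf15 and Ifnb1 at the upper edge and Steap4 and Txnip at the lower edge.

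The 3 Mubritinib samples did not lie equally far from DMSO for the called genes. Replicate 3 was the Mubritinib sample nearest to DMSO for 98 of the 137 risen genes (71.5%) and for 52 of the 97 fallen genes (53.6%). These shares cover called genes only, and the share over all genes tested was not counted. The counts rested on individual samples as well. Without Mubritinib replicate 2, 27 genes rose and 24 fell, without replicate 1 the counts were 51 and 44, and without replicate 3 they were 207 and 121. Leaving out replicate 1 of DMSO set 2 gave 211 and 124, and leaving out replicate 2 of that set gave 94 and 48. A fit on the 9 samples alone, with no other CKI to estimate the spread, called 12 and 10 genes. The replicates are described as independent biological replicates. However, deviations of same-numbered samples correlated at 0.354 to 0.553 between the DMSO sets, so the DMSO samples may not all be independent of each other. The reported fit and the DMSO SDs treat them as independent. The p-values of the reported fit rest on a spread between replicates pooled over all 59 groups, not on that of these 9 samples.

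Some genes of the integrated stress response rose. Of 41 listed genes that were tested, 11 rose, 0 fell and 30 did not pass, with a median log2 difference of 0.38 against 0.08 over all genes, and 37 of the 41 lay above 0. The 11 were Gdf15, Chac1, Trib3, Sesn2, Asns, Slc38a2, Ppp1r15a, Slc7a11, Atf4, Slc3a2 and Nars. In bulk RNA, a change in how many cells express a gene and a change in its level per cell cannot be told apart. The count stayed between 8 and 12 when any single Mubritinib or DMSO sample was left out and fell to 4 in the fit on the 9 samples alone.

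Gdf15, a secreted stress cytokine of the TGF-beta family, had the largest rise. Its DMSO values spanned 41 to 88 (median 47), and it stood at 1061, 1001 and 279 in Mubritinib replicates 1 to 3. Every Mubritinib sample was above every DMSO sample, and replicate 3 was far below the other 2. The group means were 55.0 ± 17.9 (SD, n = 6) and 780.3 ± 435 (SD, n = 3), a 14.2-fold ratio and a log2 difference of 3.63 (SE 0.45, limma adjusted p = 1.27e-09).

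Chac1, which degrades glutathione, lay at 5 to 14 in DMSO with a median of 6.5, and at 67, 74 and 66 with Mubritinib. Its Mubritinib replicates were close to each other, at 69.0 ± 4.36 (SD, n = 3) against 8.33 ± 3.72 (SD, n = 6), with a log2 difference of 2.99 (SE 0.47, limma adjusted p = 3.27e-06). Trib3, a pseudokinase that restrains ATF4 signalling and AKT, was at 35 to 93 in DMSO, median 58, and at 273, 257 and 257 with Mubritinib (log2 difference 2.22, SE 0.34, limma adjusted p = 1.3e-06). Neither gene overlapped DMSO, and in both replicate 3 was about level with the other 2 samples. Sesn2, an amino acid sensor that inhibits mTORC1, was at 42 to 99 in DMSO, median 80, and at 212, 241 and 283 with Mubritinib, and replicate 3 was here the highest sample (log2 difference 1.68, SE 0.31, limma adjusted p = 9.61e-05).

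The transcript of Atf4 itself rose from 1594 ± 179 (SD, n = 6) to 2628 ± 101 (SD, n = 3), with samples at 2652, 2715 and 2518 above a DMSO maximum of 1753 (log2 difference 0.73, SE 0.09, limma adjusted p = 3.48e-09). Ppp1r15a, the GADD34 subunit that directs dephosphorylation of eIF2 alpha, lay at 1182 to 1539 in DMSO and at 3171, 2753 and 1727 with Mubritinib (log2 difference 0.89, SE 0.14, limma adjusted p = 4.86e-06). Asparagine synthetase Asns was at 217 to 442, median 326, and rose to 582, 559 and 669 (log2 difference 0.99, SE 0.23, limma adjusted p = 0.00582). These 3 genes were separated from DMSO without overlap.

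Among amino acid transporters, Slc38a2, a carrier of small neutral amino acids, was at 1095 to 2028 in DMSO and at 2876, 2891 and 3437 with Mubritinib (log2 difference 0.95, limma adjusted p = 0.00147). Slc3a2, the heavy chain shared by several exchangers, overlapped DMSO in replicate 3, with 7919, 8110 and 4576 against 3140 to 4938 (log2 difference 0.68, limma adjusted p = 0.000567). Slc7a11, the cystine importer that pairs with it and whose promoter carries both C/EBP-ATF matches, was at 544, 529 and 478 against 159 to 518 (log2 difference 0.79, limma adjusted p = 0.0279). The cytosolic asparaginyl-tRNA synthetase Nars rose by 0.49 on the log2 scale (limma adjusted p = 0.0183). The calls of Slc3a2, Slc7a11 and Nars were lost without Mubritinib replicate 1 and again without replicate 2; that of Slc7a11 was also lost without replicate 3 of either DMSO set or replicate 2 of DMSO set 2, and that of Nars without the last of these. Ddit3, which encodes the pro-apoptotic factor CHOP, did not pass, at 98, 85 and 28 against 22 to 76 (log2 difference 0.85, SE 0.46, limma adjusted p = 0.41). Its reads overlap those of Mars1 on the opposite strand.

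Of 41 promoter entries for genes of the stress list, 9 (22%) held the C/EBP-ATF letters, and Chac1 and Slc7a11 were the only ones among them that also passed the test.

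**Figure D2:**
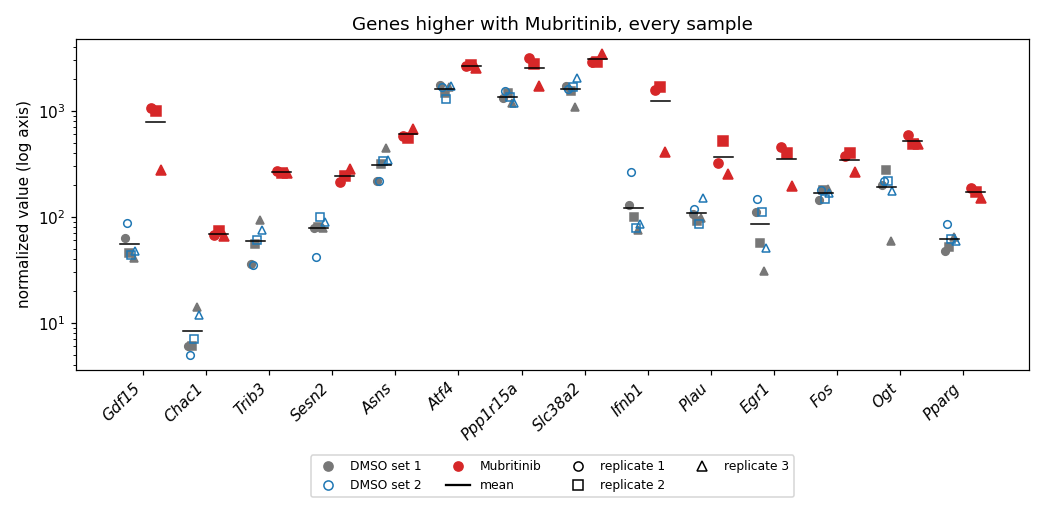
Normalized values on a log axis in each DMSO sample (grey, set 1; open blue, set 2) and each Mubritinib sample (red) for 14 genes that rose, with replicate numbers as circles, squares and triangles and group means as bars. Replicate 3 of Mubritinib (triangle) sits at 279 for Gdf15 and 412 for Ifnb1, far under the other 2 samples, but level with them for Chac1, Trib3, Asns and Atf4.

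Ifnb1, which encodes interferon beta, rose while its response genes did not pass the test. DMSO samples ranged from 75 to 262 with a median of 92.5, and the Mubritinib samples were at 1583, 1680 and 412. Every Mubritinib sample was above every DMSO sample, and replicate 3 was again the lowest of the 3. The means of 122 ± 71.5 (SD, n = 6) and 1225 ± 706 (SD, n = 3) gave a log2 difference of 3.23 (SE 0.40, limma adjusted p = 1.27e-09). On the list of interferon-stimulated genes, Ifnb1 was the only one of 59 tested that rose, 0 fell, and the median was -0.08. Cxcl10, a chemokine induced by interferon and LPS, was at 106694, 85486 and 63490 against 56043 to 112277 in DMSO, and the groups overlapped (log2 difference 0.27, SE 0.30, limma adjusted p = 0.712).

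Txnip had the smallest adjusted p of all genes. Its DMSO values were 352 to 749 with a median of 545.5, and its Mubritinib values were 82, 152 and 75, so that all 3 samples lay under the lowest DMSO sample. The mean fell from 545 ± 142 (SD, n = 6) to 103 ± 42.6 (SD, n = 3), a 5.29-fold ratio of DMSO over Mubritinib and a log2 difference of -2.42 (SE 0.22, limma adjusted p = 2.87e-16). Gm15441, a transcript annotated on the opposite strand across the whole Txnip locus (chr3:96555768-96566801), fell alongside it from 35 to 79 in DMSO to 8, 12 and 12 (log2 difference -2.33, SE 0.25, limma adjusted p = 2.37e-12). The library protocol does not mark strand, so reads of Txnip and Gm15441 cannot be told apart where they overlap.

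Among 18 tested genes on the list of MondoA targets and energy sensing, 2 fell, 1 rose and 15 did not pass, and the median was 0.02. Besides Txnip, Arrdc4 fell, from 60 to 112 in DMSO to 48, 40 and 64 with Mubritinib (log2 difference -0.73, SE 0.20, limma adjusted p = 0.0296). Its groups overlapped, and its call was lost without Mubritinib replicate 1 or 2, without replicate 3 of DMSO set 1 and without replicate 2 of DMSO set 2. The riser was Fnip1, a partner of folliculin in AMPK and mTORC1 signalling, at 484, 592 and 421 against 80 to 320 (log2 difference 1.27, SE 0.30, limma adjusted p = 0.00764), and its call was lost without Mubritinib replicate 1 or 2 and without replicate 3 of DMSO set 1. The carbohydrate response element letters occurred in 9 of 11607 promoter entries of tested genes, of which Txnip, Fnip1 and Fem1b were the ones that passed the test (log2 difference of Fem1b 0.90, limma adjusted p = 0.0208).

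Of 25 glycolysis genes, only Pfkfb3 passed, and it fell. This enzyme makes fructose 2,6-bisphosphate, an activator of glycolysis. It lay at 1664 to 3599 in DMSO, with a median of 2998, and at 1308, 786 and 1454 with Mubritinib, below every DMSO sample (log2 difference -1.29, SE 0.27, limma adjusted p = 0.00112, lost without Mubritinib replicate 2). Hexokinase Hk2 was at 760, 518 and 598 against 294 to 1078, and the glucose transporter Slc2a1 at 926, 1064 and 839 against 920 to 1135, and neither passed (limma adjusted p = 0.88 and 0.772). Of 18 tested hypoxia targets 0 passed in either direction, with 5 at an unadjusted limma p under 0.05, 4 of them above 0.

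Genes of the respiratory chain did not pass either. None of 36 nuclear-encoded complex I subunits was called by limma, with 1 at an unadjusted p under 0.05, and their median was 0.10. None of 38 subunits of complexes II to V was called, also with 1 at an unadjusted p under 0.05, and the median was 0.11. The 13 mitochondrially encoded genes lay above 0 in every case, with a median of 0.60, and none had an unadjusted p under 0.05. The mitochondrially encoded share of each sample was 0.301% to 1.05% in DMSO and 0.834%, 1.08% and 0.59% with Mubritinib, so that the groups overlapped, and it ran from 0.235% to 2.25% over the other CKIs. Replicate 3, the Mubritinib sample nearest to DMSO for most called genes, also had the lowest share of the 3. In a fit with this share and the replicate number as terms, an alternative chosen after seeing the data, 15 genes of the stress list rose and 10 of the sterol list fell, the same counts as with the replicate number alone.

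Cholesterol synthesis genes fell. Of 33 tested genes of sterol and fatty acid synthesis, 8 fell, 0 rose and 25 did not pass, with a median of -0.25, and 27 of the 33 lay below 0. Among the 8 were Cyp51, Hmgcs1, Hsd17b7, Sc5d, Msmo1, Idi1 and Aacs. Lanosterol demethylase Cyp51 was at 999 to 1280 in DMSO, median 1224.5, and at 520, 557 and 658 with Mubritinib, without overlap (log2 difference -1.05, SE 0.12, limma adjusted p = 2.53e-11). HMG-CoA synthase Hmgcs1, the gene with the sterol element shown above, was at 1604 to 2310 against 1136, 1170 and 1062 (log2 difference -0.80, SE 0.13, limma adjusted p = 4.86e-06). In both genes each Mubritinib sample was under each DMSO sample. Hmgcs1 held the only match to the sterol letters among 29 promoter entries of the list (3.45%, against 1.09% for tested genes).

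Elsewhere in the pathway, Hsd17b7 fell by 0.88, isopentenyl diphosphate isomerase Idi1 by 0.73, Sc5d by 0.60 and Msmo1 by 0.49 on the log2 scale. The acetoacetate-activating Aacs fell by 0.70, with overlapping groups, and lost its call without Mubritinib replicate 1 or 2 and without DMSO set 1 replicate 2 or 3 or set 2 replicate 2 or 3. Idi1 lost its call without Mubritinib replicate 1. The count of fallen genes was 6 to 9 when single samples were left out and 2 in the fit on the 9 samples alone. DMSO itself was near the upper end of the series for Cyp51, with a mean of 1198 against a median of 946 over the other CKIs.

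**Figure D3:**
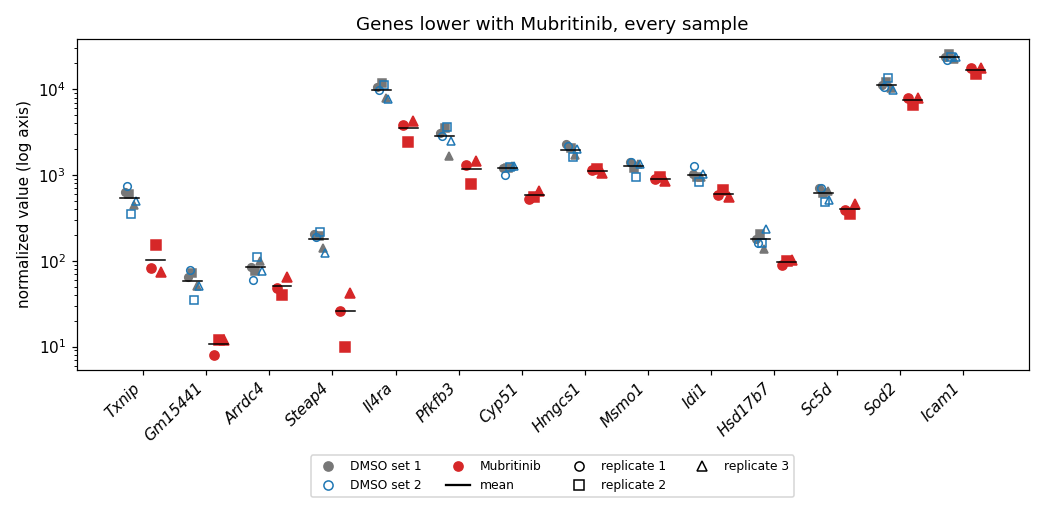
Normalized values on a log axis in each DMSO sample (grey, set 1; open blue, set 2) and each Mubritinib sample (red) for 14 genes that fell, with group means as bars. The 3 Mubritinib samples lie below all 6 DMSO samples for Txnip (75 to 152 against 352 to 749), Cyp51 and Hmgcs1, and overlap them for Arrdc4 and Msmo1.

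Immediate-early and MAPK feedback genes, which include transcription factors induced within minutes of MAPK signalling and MAPK phosphatases, were partly raised. Of 44 tested genes of the list, 5 rose (Fos, Egr1, Fosb, Klf6 and Dusp4), 0 fell, and the median was 0.23. The AP-1 subunit Fos was at 144 to 182 in DMSO and at 372, 399 and 266 with Mubritinib (log2 difference 1.03, SE 0.15, limma adjusted p = 6.22e-07). The zinc finger factor Egr1 varied more, from 31 to 148 in DMSO with a median of 84.5, and was at 453 and 195 in Mubritinib replicates 1 and 3, with replicate 2 between them (log2 difference 2.12, SE 0.51, limma adjusted p = 0.00818). Both were separated from DMSO without overlap. Fosb was at 66, 136 and 58 against 17 to 40 (limma adjusted p = 0.018), and the MAPK phosphatase Dusp4 at 750, 1129 and 809 against 235 to 452 (limma adjusted p = 0.0484).

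Of these 5 calls, that of Fos held whichever sample was left out. Without Mubritinib replicate 1 or 2 it was the only 1 left, and without replicate 3 there were 7. Dusp4 lost its call whenever any 1 of the 9 samples other than DMSO set 1 replicate 1 was missing, Klf6 lost it also without replicate 2 or 3 of DMSO set 1, and rescaling by the median of ratios left 3.

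Chemokine genes moved both ways. Of 20 tested, 3 rose (Ccl2, Cxcl2 and Ccl7), 1 fell (Ccl24), and the median was 0.24. The monocyte attractant Ccl2 was at 6977 to 8431 in DMSO and at 14027, 14110 and 11479 with Mubritinib (log2 difference 0.78, SE 0.12, limma adjusted p = 2.84e-06). The neutrophil attractant Cxcl2 was at 1328 to 1842 and at 3274, 3069 and 2009 (log2 difference 0.73, SE 0.17, limma adjusted p = 0.00582). Ccl7, another monocyte attractant, was at 3777 to 7874 and at 11430, 15722 and 6976, with overlap in replicate 3 (log2 difference 1.17, SE 0.28, limma adjusted p = 0.00909). Ccl24, an eosinophil attractant of alternatively activated macrophages, fell from 77 to 171 to 51, 45 and 21 (log2 difference -1.48, SE 0.43, limma adjusted p = 0.0408).

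The calls of Cxcl2 and Ccl7 were lost without Mubritinib replicate 1 or 2, which left Ccl2 as the 1 riser, while 6 chemokines rose without replicate 3 and 5 without replicate 1 of DMSO set 2. Ccl24 lost its call without any 1 of the 3 Mubritinib samples and without DMSO set 1 replicate 2, DMSO set 1 replicate 3 or DMSO set 2 replicate 1.

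Inflammatory cytokines and enzymes hardly passed. Of 32 tested, Plau, the urokinase plasminogen activator, was the only riser and 0 fell, and the median was 0.01. Plau was at 86 to 152 in DMSO and at 323, 524 and 253 with Mubritinib, without overlap (log2 difference 1.70, SE 0.30, limma adjusted p = 3.08e-05). Tnf was at 16921, 18921 and 7939 against 6668 to 8932, so that replicates 1 and 2 were above the DMSO range and replicate 3 inside it (log2 difference 0.82, SE 0.31, limma adjusted p = 0.173, and 0.0351 without Mubritinib replicate 3). Il6, Il1b, Il10 and Il12b gave log2 differences of 0.20, -0.30, 0.31 and -0.11 (SE 0.43, 0.41, 0.44 and 0.29), with overlapping groups and limma adjusted p-values of 0.78 or more. Nos2, the inducible nitric oxide synthase, was under every DMSO sample at 246, 59 and 305 against 432 to 1626 and did not pass (log2 difference -2.27, SE 0.68, limma adjusted p = 0.0575).

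On the list of NF-kB subunits and feedback genes, 2 of 30 fell, 0 rose, and the median was -0.16. The 2 were the mitochondrial superoxide dismutase Sod2, at 7974, 6492 and 7807 against 9923 to 13440 (log2 difference -0.61, SE 0.12, limma adjusted p = 0.000382), and the adhesion molecule Icam1, at 17906, 14872 and 17706 against 21914 to 25826 (log2 difference -0.49, SE 0.11, limma adjusted p = 0.00365). Neither gene overlapped DMSO, and without Mubritinib replicate 2 both calls were lost. Nfkbia, the NF-kB inhibitor, did not pass (log2 difference -0.22, SE 0.09, limma adjusted p = 0.256).

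The receptor for which Mubritinib was designed was barely read in these cells. Erbb2 was at 0, 0, 0, 2, 0 and 3 in the DMSO samples and at 0, 0 and 1 with Mubritinib, Erbb4 at 0 in all 9 and Egfr at 4 to 13. Of 25 ERBB receptors, ligands, adaptors and related kinases, 9 were tested, 0 passed the limma test in either direction, 1 had an unadjusted p under 0.05, and the median was 0.00. Erbb3, the one ERBB receptor that was tested, was at 36, 27 and 20 against 19 to 37. Mink1 was at 90, 87 and 56 against 36 to 91 (log2 difference 0.21, SE 0.21, limma adjusted p = 0.677). The one with the unadjusted p was Errfi1, a feedback inhibitor of EGFR, at 761, 1386 and 901 against 1338 to 1699 (log2 difference -0.68, SE 0.27, limma adjusted p = 0.215).

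Outside these lists, the strongest falls included Steap4, a metalloreductase, at 26, 10 and 42 against 124 to 215 (log2 difference -2.90, SE 0.53, limma adjusted p = 0.000111), and the threonine aldolase Tha1, at 28, 34 and 52 against 106 to 210 (log2 difference -1.91, SE 0.25, limma adjusted p = 9.56e-09). Il4ra, the interleukin-4 receptor subunit, was at 7673 to 11680 in DMSO and at 3781, 2404 and 4286 with Mubritinib (log2 difference -1.51, SE 0.25, limma adjusted p = 8.05e-06). Sema4c, B3gnt7, Plekhf1, Acvr1b, Cnn3, Gpr146, Spsb1 and Sbno2 completed the 15 largest separated falls, with log2 differences between -1.82 and -1.08. The calls of Cnn3, Acvr1b, Spsb1 and Sbno2 were lost without Mubritinib replicate 2, and that of Spsb1 also without replicate 1 or DMSO set 2 replicate 2.

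Among the rises, Ogt, which attaches N-acetylglucosamine to proteins, was at 59 to 275 in DMSO and at 594, 485 and 491 with Mubritinib (log2 difference 1.58, SE 0.28, limma adjusted p = 3.52e-05). Pparg, a nuclear receptor of lipid metabolism, was at 48 to 86 and at 188, 173 and 152 (log2 difference 1.47, SE 0.21, limma adjusted p = 2.34e-07). Mylip, a ubiquitin ligase induced by LXR, was at 101 to 138 and at 250, 374 and 181 (log2 difference 1.09, SE 0.25, limma adjusted p = 0.00374, lost without Mubritinib replicate 2). Pparg and Mylip were the 2 risers among 18 genes of LXR and lipid handling, whose median was 0.19. The serotonin receptor Htr2a and the RNA-binding Zfp36l2 were also among the 15 largest separated rises, at log2 differences of 2.07 and 1.52, and Zfp36l2 lost its call without Mubritinib replicate 1 or 2.

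Other lists had few calls. Slc7a11 was the only called gene among 26 NRF2 targets, and Hmox1, their classic member, was at 2973, 3770 and 3102 against 2986 to 3805. Sesn2 was the only one among 17 p53 targets, Ogt and Clk4 rose among 24 CLK kinases and intron-retaining genes, and Gprc5a rose and P2rx4 fell among 35 surface receptors. Clk4 lost its call without Mubritinib replicate 1 or 2 or DMSO set 2 replicate 2, Gprc5a without Mubritinib replicate 2 or 3, and P2rx4 without Mubritinib replicate 2 or DMSO set 2 replicate 2. By limma, 0 genes passed among 14 mitochondrial chaperones and proteases, 26 heat shock and ER stress genes, 34 lysosome and autophagy genes, 30 cell cycle genes, 72 ribosomal protein genes and 240 numbered Zfp genes, with 3, 6, 4, 3, 8 and 29 at an unadjusted p under 0.05. The ribosomal protein genes had a median of 0.25, and 66 of the 72 lay above 0.

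**Figure D4:**
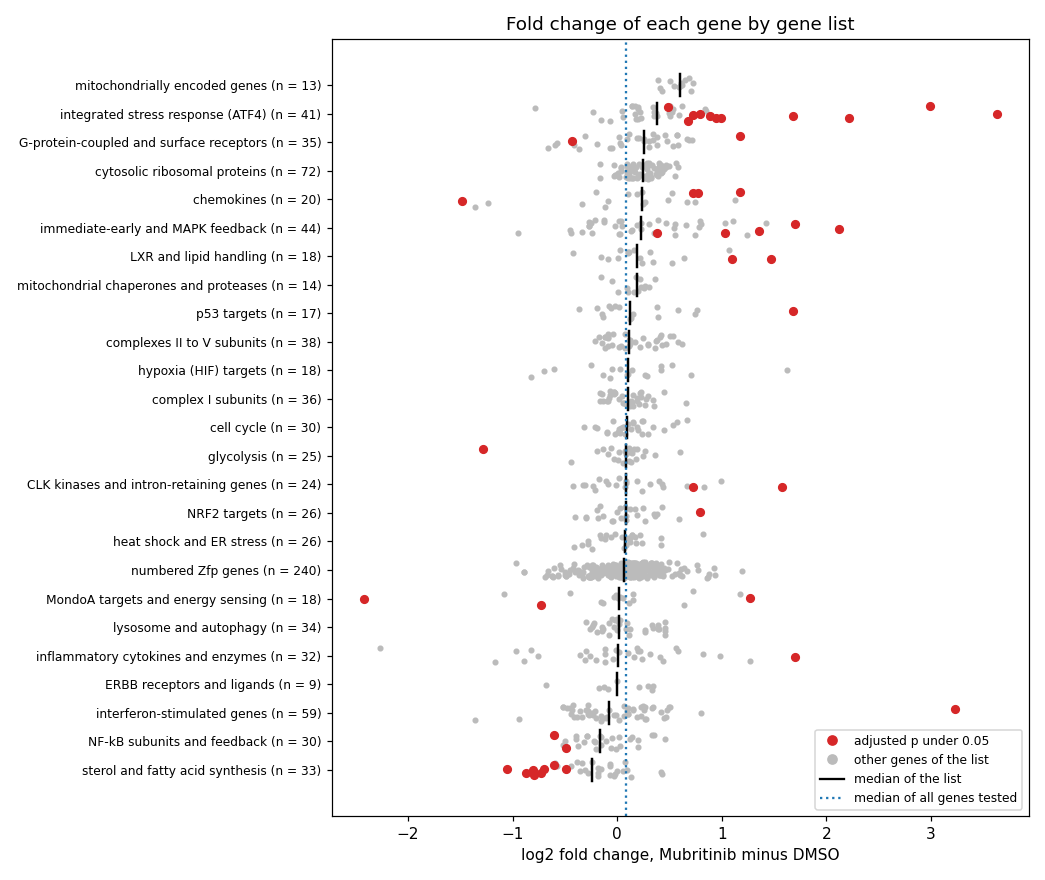
Each point is a tested gene of a list, at its log2 difference of Mubritinib minus DMSO, with the genes past an adjusted p of 0.05 in red, the median of the list as a black bar and the median of all genes (0.08) as a dotted line. The stress response list has 11 red points, all to the right, and the sterol list 8, all to the left.

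Mubritinib was then set against the mean of the other 57 CKIs in the same fit, which asks whether a gene stood apart from the CKIs in general and does not use the DMSO samples as a reference. It was higher for 67 genes (0.527%) and lower for 66 (0.519%). Of these, 49 were also among the 137 genes higher than in DMSO and 42 among the 97 lower, and 0 genes were called in opposite directions. Both comparisons use the same 3 Mubritinib samples, so this overlap is not independent evidence. Txnip gave a log2 difference of -2.78 (SE 0.18, limma adjusted p = 7.56e-27). Of the 171 samples of other CKIs, 0 had a Txnip value at or under the highest Mubritinib value of 152, and the lowest was 314. The same held for Gm15441, where the lowest of the 171 was 26 against a Mubritinib maximum of 12. The counts fell to 27 and 32 without Mubritinib replicate 2, to 21 and 24 without replicate 1 and to 44 and 38 without replicate 3.

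For the stress response genes, other CKIs reached similar or higher levels. Mubritinib was higher than the mean of the others for 9 of the 41 listed genes, among them Gdf15 (log2 difference 3.23), Chac1 (2.74), Trib3 (2.05) and Sesn2 (1.61). By mean log2 value it ranked 2 of 58 for Chac1, Trib3, Sesn2 and Asns, after Afatinib in each case, a covalent inhibitor of the ERBB family whose group means were 162, 813, 297 and 1175. Mubritinib ranked 3 for Gdf15, and the highest group mean belonged to BGT226, an inhibitor of PI3K and mTOR, at 1338. For Ifnb1 it ranked 2 after Omipalisib, which inhibits the same pair of kinases, at a group mean of 1553 (log2 difference to the mean of the others 2.51, SE 0.33, limma adjusted p = 1.15e-08).

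Fos, Egr1, Ogt and Pparg had their highest mean log2 value with Mubritinib among the 58 CKIs. None of the 171 other CKI samples reached the lowest Mubritinib value of 485 for Ogt, 1 reached that of Fos (266) and 2 reached that of Pparg (152), while 9 reached that of Egr1 (195). Of the genes named here, Txnip, Gm15441, Arrdc4, Steap4, Plekhf1, Sod2, Icam1 and Nos2 were lowest with Mubritinib by the same measure. Sterol genes were lower than in the other CKIs for 6 of the 33, with Cyp51 at -0.61 (SE 0.10, limma adjusted p = 4.77e-06). Mubritinib was not the lowest group for them, since Omipalisib had the lowest group mean for Cyp51 (248) and Hmgcs1 (489.7).

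**Figure D5:**
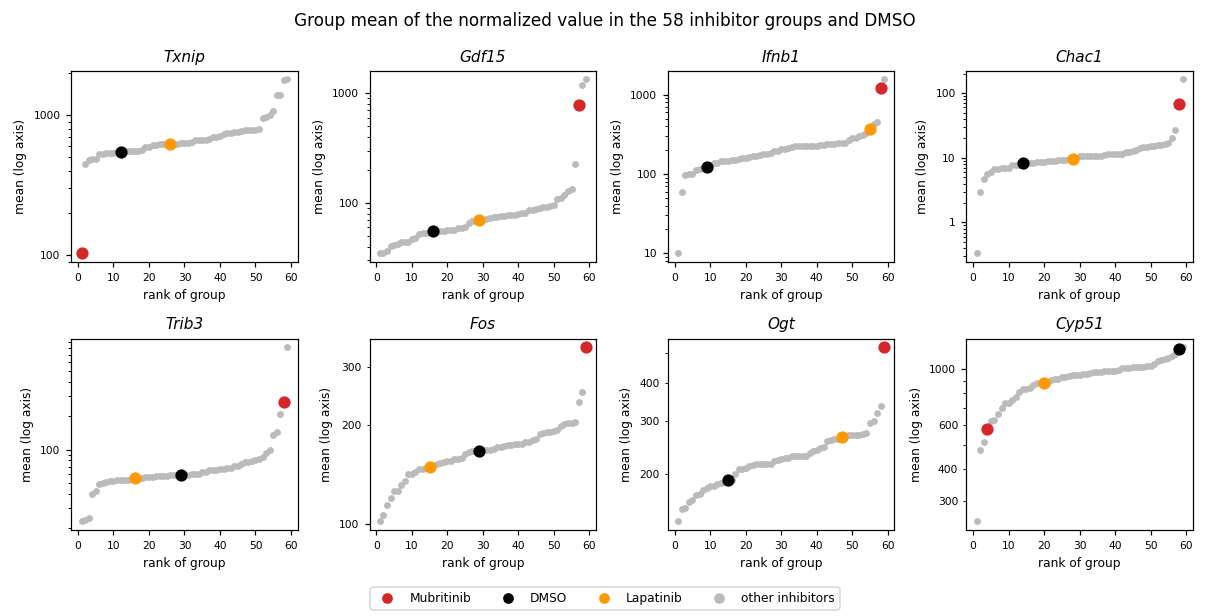
For 8 genes, the group mean of the normalized value (log axis) is plotted for the 58 CKI groups (3 samples each) and DMSO (6 samples) in ascending order, with Mubritinib in red, DMSO in black and Lapatinib in orange. Mubritinib is the lowest group for Txnip, far from the next (103 against 445), and the highest for Fos and Ogt, whereas 1 or 2 other CKIs exceed it for Gdf15, Ifnb1, Chac1 and Trib3.

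Lapatinib, a second CKI designed against ERBB2 that also inhibits EGFR, was given for the same times but its concentration was not matched to that of Mubritinib, so the difference covers compound and dose together. Mubritinib was higher than Lapatinib for 64 genes (0.503%) and lower for 37 (0.291%), by limma in the same fit. Of these, 24 and 22 were also called in the same direction against DMSO, a comparison that shares the same Mubritinib samples. The mitochondrially encoded share was 1.7%, 1.51% and 1.04% in the Lapatinib samples, with replicates 1 and 2 above and replicate 3 within the 0.59% to 1.08% of the Mubritinib samples, and the median log2 difference of the 13 mitochondrially encoded genes was -1.20. Blocking on replicate number gave 310 and 140, and the block together with this share, chosen after seeing the data, gave 166 and 75. The interferon-stimulated genes had a median of -0.66 in this comparison with 0 called either way, and the inflammatory cytokines and enzymes one of -0.72 with 0 higher and 1 lower. Txnip was at a group mean of 624 with Lapatinib (log2 difference of Mubritinib minus Lapatinib -2.66, SE 0.25, limma adjusted p = 6.29e-15) and Gdf15 at 69.7 (3.29, SE 0.52, limma adjusted p = 1.24e-05). Chac1 (2.79), Trib3 (2.22), Sesn2 (1.97) and Fos (1.19) were higher with Mubritinib as well, and 9 of the 41 stress genes passed in this direction and 0 in the other. Cyp51, Hmgcs1, Hsd17b7, Sc5d and Idi1 were lower, with log2 differences between -0.99 and -0.49.

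Ifnb1 did not pass between the 2 CKIs, with a mean of 372 in the Lapatinib samples and a log2 difference of 1.48 (SE 0.46, limma adjusted p = 0.109). Nor did Ccl2, Tnf, Plau, Pparg or Ogt (limma adjusted p between 0.0761 and 0.938). The chemokines Ccl17 and Ccl24 were lower with Mubritinib than with Lapatinib, at log2 differences of -2.94 and -2.13. Leaving out 1 of the 3 Lapatinib samples gave 20 to 44 higher and 9 to 20 lower genes, and leaving out 1 Mubritinib sample gave 21 to 48 and 20 to 23.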

How the data were processed

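RNA was measured in BMDMs by SMART-seq2 with oligo(dT) priming and Tn5 tagmentation, a protocol that keeps no strand. Per the labels and methods, the authors aligned reads to mm10 with TopHat2 2.1.1, removed blacklisted regions with bedtools 2.29.2, counted reads on exons of curated RefSeq genes, scaled the counts on invariant genes and tested with DESeq2 in R 3.6.2. The deposited values are these scaled counts rounded to whole numbers, treated here as a score (normalized value) and not as raw counts, so no count test was run and the original depth is unknown. The table's 180 sample columns were all mapped, and its other 15 columns hold annotation.

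Values were analysed as log2(value + 1) with limma 3.58.1 in R 4.3.3 (variance trend, 59 groups in 1 fit, Benjamini-Hochberg adjustment), after a mean filter of 10. The test was checked only on simulated data with independent noise in each gene and sample, without shifts shared across the genes of a sample. Mubritinib was contrasted with DMSO, with the mean of the other 57 CKIs and with Lapatinib. The members and gene lists were chosen with earlier results of these data known. Genes named were the 15 largest rises and 15 largest falls past the threshold with no overlap and a mean of 50 or more in the higher group, up to 6 members of each list with the smallest adjusted p, and 22 genes of LPS, ERBB, stress and glucose biology. Genes outside this rule were named only where a count or rank called for it, after their values were seen. Lists were described by counts and medians, with no set test, and 1 called member of the sterol list is not reported here. Alternatives were the pseudocount, the filter, a rescaling, single DMSO sets, no trend, the 9 samples alone, a replicate block and leaving out each sample. The pairing of replicate numbers was checked and is given with the alternatives. Figures used matplotlib 3.10.9 and Python 3.11.15.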

Additional observations from a re-analysis of the deposited data

Results flagged for a closer look

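Among 46 genes (the 30 largest separated changes and the genes given whatever their values), 3 had a DMSO sample far from the other 5 by Dixon's test on the log2 scale at the 95% level, which sets the gap to the nearest sample against the whole range. Chance flags about 1 in 20 groups. Sesn2 was at 42 in DMSO set 2 replicate 1, the lowest of the 6 (gap over range 0.721). Ogt was at 59 in DMSO set 1 replicate 3, also the lowest (0.713). Hmox1 was at 2986 in DMSO set 2 replicate 2, the lowest again (0.755). The Mubritinib calls of Sesn2 and Ogt were kept without each of these samples, and Hmox1 was not called with or without them.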

How the results depend on the processing

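Of the 58 called genes that the naming rule covers, 0 changed direction in any alternative, and 18, among them Txnip, Gdf15, Ifnb1, Chac1, Trib3 and Fos, passed in all that tested them. Calls of 38 of the 58 were lost with the 9 samples alone, 28 without Mubritinib replicate 2, 21 with DMSO set 2 alone, 16 without Mubritinib replicate 1 and 11 with DMSO set 1 alone. Higher and lower counts against DMSO were 137 and 97 in the reported fit. They were 83 and 41 with DMSO set 1 alone, 48 and 42 with set 2 alone, 12 and 10 with the 9 samples alone, and 27 to 211 and 24 to 124 when 1 sample was left out. With no filter 247 genes were higher, and rescaling gave 155 lower. Against the other CKIs, no filter gave 237 higher, and leaving out 1 sample gave 21 to 44 higher and 24 to 38 lower. Against Lapatinib, no filter gave 154 and 220, and leaving out 1 sample 20 to 48 and 9 to 23. In the lists, leaving out 1 sample gave 8 to 12 stress, 6 to 9 sterol, 1 to 7 immediate-early and 1 to 6 chemokine genes. It also gave 0 to 3 NF-kB genes and 1 to 2 MondoA genes. On the interferon-stimulated list the 1 risen gene was always Ifnb1, the interferon itself. The 9 samples alone gave 4 stress, 2 sterol, 2 immediate-early, 1 chemokine, 0 NF-kB and 1 MondoA gene. Immediate-early genes numbered 3 with no filter, 3 after rescaling and 1 with DMSO set 2 alone, which also gave 1 NF-kB and 1 MondoA gene. DMSO set 1 alone gave 1 MondoA gene. The causes of these changes were not tested.

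With the replicate block, 307 genes were higher and 197 lower than in DMSO, 133 and 126 than in the other CKIs, and 310 and 140 than with Lapatinib, with 5 chemokines, 10 immediate-early and 3 NF-kB genes. The labels do not say that a replicate number marks a shared animal. Deviations of same-numbered samples correlated at 0.354 to 0.553 between the DMSO sets, and those of differently numbered samples at -0.392 to -0.0155. The DMSO samples may therefore not all be independent of each other, although the reported fit treats them so. Between Mubritinib and DMSO, same-numbered samples correlated at -0.388 to 0.487, with replicate 2 at -0.029 and -0.388, so the numbers were not taken as pairs. Mubritinib replicate 3 correlated at 0.607 with DMSO set 2 replicate 2 and at -0.689 with DMSO set 2 replicate 1. The latter sample correlated at 0.487 and 0.397 with Mubritinib replicates 1 and 2. Whether this pattern bears on the position of Mubritinib replicate 3 was not tested. Adding the mitochondrial share to the block, an alternative chosen after seeing the data, gave 317 and 189 against DMSO, 179 and 153 against the other CKIs and 166 and 75 against Lapatinib, with 5 chemokines and 9 immediate-early genes. Depth limits nothing that can be stated, since original read counts are unknown.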

Other observations

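Genes of the circadian clock, a group chosen after their values were seen, included several of the largest rises. Of 15 tested, 4 rose (Bhlhe41, Nr1d1, Bhlhe40 and Cipc), 0 fell, and the median was 0.51. Bhlhe41, a repressor of E-box genes, was at 29 to 200 in DMSO, median 62.5, and at 500, 724 and 218 with Mubritinib (log2 difference 2.57, SE 0.55, limma adjusted p = 0.00147). Nr1d1, the repressor REV-ERB alpha, was at 6 to 32 and at 83, 102 and 35 (log2 difference 2.04, limma adjusted p = 0.000544). Cipc, an inhibitor of the CLOCK protein, was at 198 to 246 and at 422, 488 and 441 (log2 difference 1.01, limma adjusted p = 0.000219). Nr1d1 overlaps Thra on the opposite strand. The calls of Bhlhe41 and Nr1d1 were lost without Mubritinib replicate 2, and that of Bhlhe40 without replicate 1 or 2. BGT226 had the highest group mean among the other CKIs for all 4 genes.

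Genes of interleukin-4 receptor and STAT5 signalling, were likewise chosen after their values were seen. Of 16 tested, 4 fell (Il4ra, Sbno2, Cish and Stat5a), 1 rose (Irs2), 11 did not pass, and the median was -0.36. Cish, a feedback inhibitor induced by STAT5, was at 1993 to 2571 in DMSO and at 1503, 974 and 1296 with Mubritinib, without overlap (log2 difference -0.88, SE 0.18, limma adjusted p = 0.000834, lost without Mubritinib replicate 2). Stat5a was at 1706 to 3857 and at 1360, 821 and 1524 (log2 difference -0.93, limma adjusted p = 0.0423) and lost its call without Mubritinib replicate 1 or 2 and without replicate 2 of either DMSO set. The insulin receptor substrate Irs2 was at 19 to 52 and at 92, 159 and 58 (log2 difference 1.39, limma adjusted p = 0.0326) and lost its call without Mubritinib replicate 1 or 2 and without replicate 2 of either DMSO set or replicate 3 of set 1.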
